A study of Mus musculus with 12 samples.

Results

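The genes of fatty acid oxidation and of the peroxisome were followed through 3 fractions of sorted mouse kidney tubules. A gene was taken as a member when its name on the array began with Acad, Acaa, Acox, Acot, Acsl, Acsm, Acss, Cpt1, Cpt2, Hadh, Ech, Ehhadh or Pex and a number, which gave 67 genes with 106 probes among 27597 named genes. Membership followed from the name alone, but the members and the gene lists below were chosen with earlier results of these data known. Of the 67, 65 passed the filter on dim probes and were tested among 17071 genes. The remaining members, Acsl6 and Acoxl, did not pass it. The name Pex2 on the array belongs to a probe whose accession is now that of Pex5l, a neuronal relative of the peroxisomal import receptor Pex5 that is known for binding HCN channels. It is called Pex5l here.

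Tubules in suspension had been sorted with a COPAS instrument, a flow sorter for large particles, according to the green fluorescent protein EGFP. The EGFP+ fraction holds fluorescent distal convoluted tubules (DCT), the EGFP- fraction holds tubules without the fluorescence, and ALL is the total fraction. Each fraction came from the same 4 mice, of which mice 1 and 3 were female and mice 2 and 4 male, so that n = 4 mice per fraction and 12 arrays in all. The sources used here give neither the strain and age of the mice nor the promoter that drives EGFP. The labels name no treatment, and each sample was read on 1 one-colour Agilent array.

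Fatty acids enter oxidation as acyl-CoA thioesters made by acyl-CoA synthetases, and thioesterases can split them again. Long chains pass into mitochondria through carnitine palmitoyltransferases and are then shortened in rounds by a dehydrogenase, a hydratase, a hydroxyacyl-CoA dehydrogenase and a thiolase. Peroxisomes shorten very long, branched and dicarboxylic chains with an acyl-CoA oxidase in place of the dehydrogenase, and peroxins build these organelles and import their enzymes. The proximal tubule is the nephron segment best known for abundant peroxisomes and fatty acid oxidation, while the DCT is rich in mitochondria.

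All levels are log2 processed signals after subtraction of the array's 75th percentile over probes, so that 0 is an array's upper quartile and a difference of 1 is a doubling. Levels of different genes' probes are not compared. On the 12 arrays the upper quartile of the processed signal was 922 to 2270, and 53.9% to 65.6% of probes were well above background. The summed linear level of 6 DCT markers, relative to the upper quartile, was 409.9 to 524.0 in EGFP+ and 23.6 to 35.1 in EGFP- arrays, and Pvalb was above background on no EGFP- array. Proximal tubule markers moved the other way. The summed level of 6 of the 12 listed (those with a value on every array) was 1.84 to 5.31 in EGFP+ and 97.8 to 112.3 in EGFP- arrays, which left the EGFP+ fraction of mice 1 to 4 at 1.89%, 4.73%, 2.15% and 3.47% of the EGFP- level. Both male mice, 2 and 4, were the higher pair. The sum includes Slc7a13, which was not called (adjusted p = 0.444) and read -6.02, 0.21, -7.28 and -0.05 in EGFP+, and without it, an alternative chosen after seeing the data, the shares were 1.87%, 4.5%, 2.15% and 3.31%. Podocyte, endothelial and leukocyte marker sums were lower in EGFP+ as well, at 0.414 to 1.23 against 24.9 to 53.0 for podocytes. Markers of neighbouring segments did not all fall. Of 5 thick ascending limb markers, Casr (4.2), Umod (1.93), Cldn16 (1.58) and Slc12a1 (0.75) were called higher in EGFP+ and Cldn10 lower (-5.05), and of 7 collecting duct markers Atp6v1b1 was higher (2.01), 5 were lower and Slc4a1 did not pass. The part of such segments in the higher members below was not tested. In such mixed fractions, fewer cells of a type and less RNA per cell cannot be told apart.

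Some bright spots on the male mouse 2 arrays carried the scanner software's outlier mark and were left out. On the ALL array of mouse 2 this removed 11 of the 65 tested members (16.9%, against 2.04% of all genes), and on its EGFP- array 5 (7.69%, against 0.92%). Acsm1, Cpt2, Ehhadh and Acadvl lack both values, and Hadh lacks the EGFP- value. Among others, Acsm2, Acsm3, Acadm, Echdc2, Acss1 and Acaa1a lack the ALL value.

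The probes of 2 members with large differences in each direction are shown because their sequences set what was measured. They are the 60-base oligonucleotides of the array, with mm8 coordinates and strand as given in the scanner files. The capitals in Cpt1b mark a stop codon in 1 reading frame, while the other 2 frames are open. Whether it is the stop codon of the gene was not looked up. The others cross at least 1 intron in the genome and hold an open reading frame over their whole length.
Cpt1b (chr15:89244658-89244717, minus strand): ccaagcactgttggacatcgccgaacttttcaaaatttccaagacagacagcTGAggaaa
Acsl5 (chr19:55347503-55348091, plus strand): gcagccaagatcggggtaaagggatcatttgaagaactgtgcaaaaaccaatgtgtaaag
Acsm1 (chr7:119451814-119453386, plus strand): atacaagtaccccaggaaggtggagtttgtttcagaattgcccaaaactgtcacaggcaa
Acox2 (chr14:7019530-7023919, minus strand): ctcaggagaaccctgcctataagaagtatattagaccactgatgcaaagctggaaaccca

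The first comparison asked how DCT tubules differ from the tubules without EGFP. In EGFP+ tubules Cpt1a and Cpt1b of the mitochondrial carnitine gate and 3 of 4 long-chain synthetases stood higher, while the peroxisomal oxidases Acox2 and Acox3, 2 of 3 medium-chain synthetases and 7 of 12 thioesterases stood lower. Of the 65 members tested with limma, 43 differed (66.2%, against 58.2% of all genes tested), 14 of them higher (21.5%, against 32.3%) and 29 lower (44.6%, against 25.9%). The shares over all genes, 32.3% higher and 25.9% lower, also stand beside every count by role below. The roles were not tested against these shares. The median difference of the members was -0.36, beside 0.11 for all genes. The lower members reached further: 13 had a fitted difference of at least 4-fold lower, among them Acsm3, which did not pass, and Cpt1c, which was above background on no EGFP+ array (13.3% of all genes had one), and 3 were at least 4-fold higher (5.23% of all genes were). Arrays of the 2 fractions did not overlap for 46 members, beside 55.8% of all genes. Within the 3 array slides taken singly, 40 of the 43 called members kept their sign on every slide, and the other 3, Acsm1, Ehhadh and Cpt2, had no value on the second slide. The calls came from these same arrays, so the kept signs lend them no separate support. On the second slide EGFP+ of female mouse 3 stood against EGFP- of male mouse 2, so fraction, mouse and sex are mixed there.

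**Figure D1:**
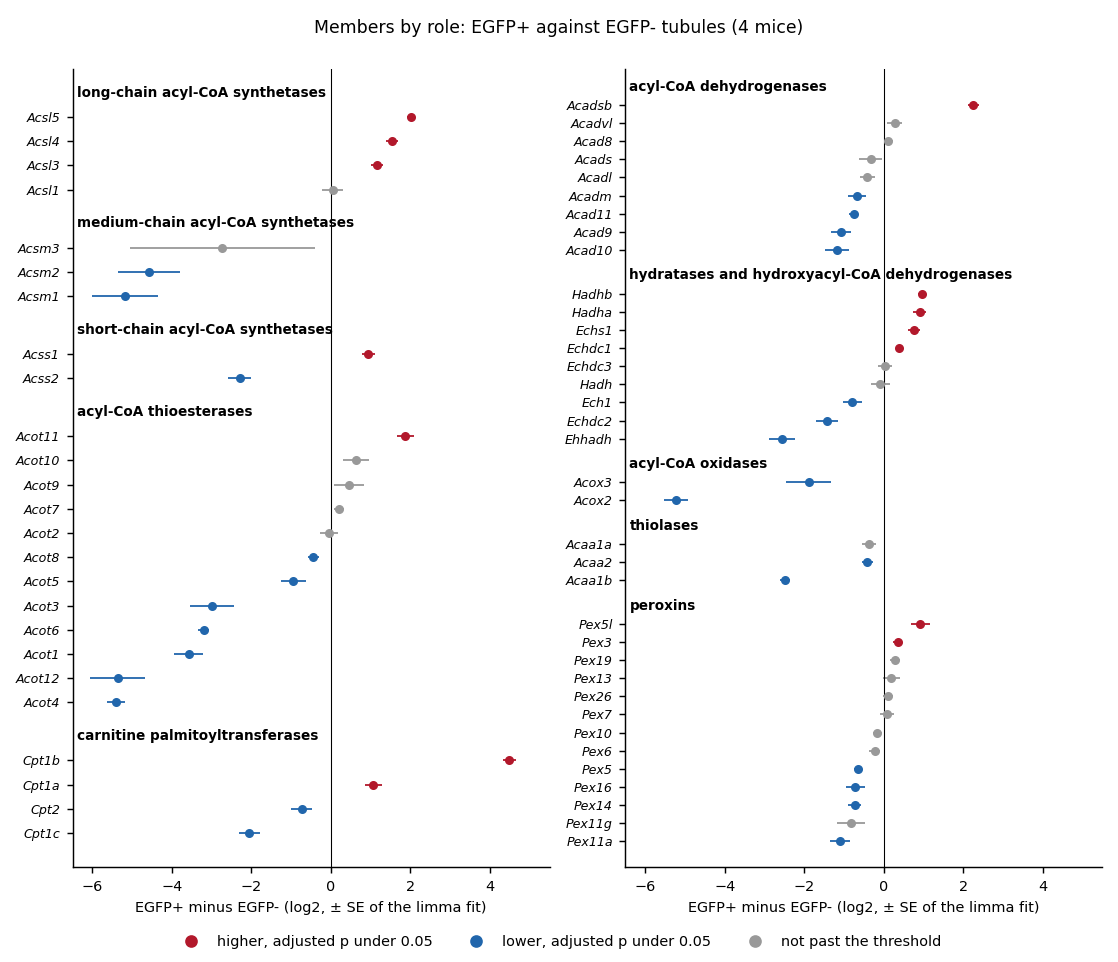
EGFP+ minus EGFP- difference (log2, bars are SE of the limma fit, 4 mice per fraction) of 61 tested members, grouped by role. The 14 red members lie to the right of 0, from 0.35 for Pex3 to 4.49 for Cpt1b, and the 27 blue ones reach -5.41 for Acot4.

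Carnitine palmitoyltransferase 1 hands long acyl chains to carnitine at the outer mitochondrial membrane and is the regulated step of their oxidation. Its muscle-type isoform Cpt1b had levels of 3.39, 3.33, 3.38 and 3.35 in the EGFP+ arrays of mice 1 to 4, 0.52, 0.14, 0.36 and -0.09 in ALL and -1.03, -0.90, -1.03 and -1.54 in EGFP-. The 3 fractions did not overlap, and every EGFP+ array stood above every ALL array and every ALL array above every EGFP- array. The difference between EGFP+ and EGFP- was 4.49 ± 0.16 (SE, limma adjusted p = 2.1e-09), or 22.4-fold. The Cpt1b probe printed above gave 4.48 beside 4.49 for the representative probe at chr15:89244225-89244284 (mm8). Cpt1b is a gene of striated muscle and brown fat. Of the 4 muscle markers Ckm, Myh4, Acta1 and Myl1, only Acta1 passed the filter, and it was above background on no EGFP+ array. Of the 5 adipocyte markers Adipoq, Plin1, Lep, Cfd and Retn, only Retn passed the filter, and it was not above background on any EGFP+ array either. The part of muscle or fat cells in the Cpt1b signal was not tested.

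The liver-type isoform Cpt1a read 5.30, 5.34, 5.34 and 5.23 in EGFP+, 4.07, 4.67, 4.05 and 4.65 in ALL and 4.00, 4.55, 3.76 and 4.62 in EGFP- arrays. It was higher in EGFP+ by 1.07 ± 0.21 (adjusted p = 0.00103), with no overlap, so that Cpt1a and Cpt1b both stood higher in the DCT fraction. Cpt2, the inner-membrane partner that returns the chain to CoA, moved the other way, with 4.21, 4.49, 4.57 and 4.40 in EGFP+ and 4.91, 4.89 and 5.67 in the EGFP- arrays of mice 1, 3 and 4, a difference of -0.74 ± 0.26 (adjusted p = 0.0347). That call was lost under 6 of the 12 other settings. Cpt1c, the neuronal isoform, was close to background. Its tested probe was well above background on no EGFP+ array (-5.96, -6.71, -6.53 and -5.87) and on all 4 EGFP- arrays (-3.90, -4.34, -3.87 and -4.76), and its fitted difference of -2.05 ± 0.27 (adjusted p = 4.2e-05) became 0.20 (adjusted p = 0.711) with normexp background correction.

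The long-chain acyl-CoA synthetases Acsl1, Acsl3, Acsl4 and Acsl5 activate long fatty acids at the endoplasmic reticulum, the outer mitochondrial membrane and peroxisomes. Of the 4 tested, 3 were higher in EGFP+ and none lower, with a median difference of 1.34. Acsl5 had levels of 4.13, 4.16, 4.16 and 4.28 in EGFP+ and 2.29, 2.09, 2.22 and 2.11 in EGFP- arrays, a difference of 2.01 ± 0.09 (adjusted p = 7.9e-09) or 4.02-fold. Acsl4, which prefers arachidonate, read 4.53, 4.63, 4.73 and 4.49 in EGFP+ and 3.30, 3.03, 3.14 and 2.77 in EGFP- (1.54 ± 0.15, adjusted p = 3.0e-06). Acsl3, linked to lipid droplets, read 1.97, 1.91, 1.92 and 1.64 in EGFP+ and 0.64, 0.99, 0.49 and 0.72 in EGFP- (1.15 ± 0.15, adjusted p = 2.9e-05). For each of these 3 genes all EGFP+ arrays stood above all EGFP- and all ALL arrays. Acsl1 did not differ past the threshold (0.04 ± 0.27, adjusted p = 0.912), and its EGFP- values of 5.73, 5.09, 5.74 and 4.68 overlapped the EGFP+ values of 5.15, 5.42, 5.57 and 5.25.

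The medium-chain synthetases Acsm1, Acsm2 and Acsm3, mitochondrial enzymes that activate medium-chain fatty acids and aromatic acids such as benzoate, lay on the opposite side, and 2 of the 3 passed. Acsm1 read -0.21, 2.66, -0.39 and 2.09 in the EGFP+ arrays of mice 1 to 4 and 5.56, 5.83 and 7.27 in the EGFP- arrays of mice 1, 3 and 4, a difference of -5.18 ± 0.83 (adjusted p = 4.5e-04) or 36.3-fold. Mouse 2 is in the EGFP+ mean and not in the EGFP- mean. With the mouse as a block the limma difference was -5.72 ± 0.19 (adjusted p = 2.6e-07). Acsm2 read 0.53, 4.11, 1.19 and 3.81 in EGFP+ and 6.32, 7.27, 6.63 and 7.74 in EGFP- arrays (-4.58 ± 0.79, adjusted p = 4.9e-04), and another tested probe gave -5.04. The EGFP+ arrays lay below all EGFP- arrays for both genes, and within EGFP+ the male mice 2 and 4 were the higher pair. Acsm3 read -2.57, 1.99, -2.47 and 1.43 in EGFP+ and -0.53, 5.78, -2.09 and 6.15 in EGFP- arrays. It was lower in EGFP+ in 4 of 4 mice, and the levels of females and males lay far apart. The fit without mouse did not pass (-2.73 ± 2.33, adjusted p = 0.34), while the fit with the mouse as a block did (-2.73 ± 0.71, adjusted p = 0.00993). The 3 genes lie in 1 stretch of chromosome 7, with representative probes at chr7:119387268-119387327 for Acsm2, chr7:119451814-119453386 for Acsm1 and chr7:119575656-119575715 for Acsm3 (mm8).

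The short-chain synthetases, which make acetyl-CoA from acetate, parted by compartment. The mitochondrial Acss1 was higher in EGFP+, at 6.85, 6.86, 7.27 and 7.17 against 6.20, 5.85, 6.45 and 5.89 in EGFP- (0.94 ± 0.17, adjusted p = 7.9e-04), and values set against each other below keep this order. The cytosolic and nuclear Acss2 was lower, at 1.39, 1.71, 1.61 and 1.43 against 3.21, 4.09, 3.58 and 4.48 (-2.30 ± 0.30, adjusted p = 4.3e-05). Neither gene's arrays overlapped between the fractions.

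**Figure D2:**
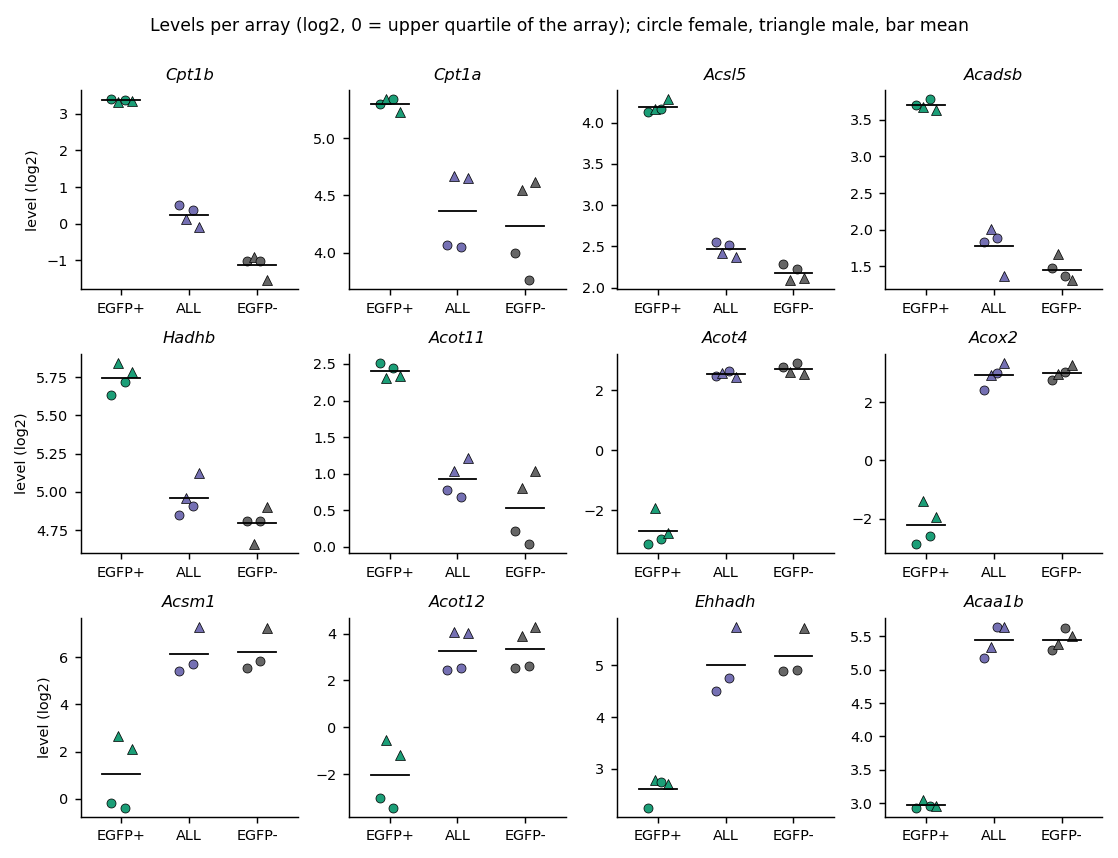
Level on each array (log2, vertical axis, 0 is the array's upper quartile) of 12 members in EGFP+, ALL and EGFP- tubules, with circles for female mice, triangles for male mice and a bar at the mean. Cpt1b runs from 3.36 in EGFP+ to 0.23 in ALL and -1.12 in EGFP- (means). The 6 members of the last 6 panels are lower on every EGFP+ array than on any ALL or EGFP- array.

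Acyl-CoA thioesterases split acyl-CoA into free acid and CoA. Of the 12 tested, 7 were lower in EGFP+, 1 was higher and 4 did not pass. Acot4, a peroxisomal enzyme for succinyl-CoA and other dicarboxylic CoA esters, read -3.13, -1.92, -2.96 and -2.77 in EGFP+, 2.48, 2.58, 2.66 and 2.44 in ALL and 2.77, 2.62, 2.91 and 2.54 in EGFP- arrays. This was the lowest of all member differences in the fit without mouse, -5.41 ± 0.22 (adjusted p = 4.1e-09) or 42.4-fold. With the mouse as a block Acsm1 was lower, at -5.72 beside -5.41 for Acot4. Acot12, a cytosolic acetyl-CoA hydrolase, read -3.03, -0.54, -3.44 and -1.18 in EGFP+ and 2.53, 3.88, 2.60 and 4.28 in EGFP- arrays (-5.37 ± 0.69, adjusted p = 3.6e-05). In Acot4 and Acot12 the EGFP+ arrays lay below all others by more than the spread within a fraction.

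Acot1 to Acot6 lie in a row on chromosome 12 and are paralogs, so cross-hybridisation between them cannot be told apart from signal of the named gene. In map order (mm8), Acot2 at chr12:84882869-84882928 did not pass (-0.05 ± 0.22, adjusted p = 0.876), while Acot1 at chr12:84907250-84907309, a cytosolic long-chain enzyme, was lower at 0.25, 2.04, 0.28 and 1.14 in EGFP+ against 4.37, 4.87, 4.63 and 4.17 in EGFP- (-3.58 ± 0.37, adjusted p = 5.0e-06). Acot4 at chr12:84933619-84933678 was followed by Acot3 at chr12:84948386-84948445 (-2.99 ± 0.55, adjusted p = 6.2e-04), Acot5 at chr12:84965605-84965664 (-0.95 ± 0.31, adjusted p = 0.0203) and Acot6 at chr12:85000749-85000808 (-3.20 ± 0.14, adjusted p = 6.2e-09). Thus 5 of the 6 neighbours were lower and Acot2, the mitochondrial member of the row, was not called. Acot5 was above background on no EGFP+ array and on 2 of 4 EGFP- arrays, its fractions overlapped, and it did not pass with normexp correction or without mouse 1 or mouse 3. Acot8, a peroxisomal thioesterase that lies elsewhere, was lower by a small step (-0.44 ± 0.15, adjusted p = 0.028). That call was lost with median centring, without the filter on dim probes and without mouse 1, mouse 2 or mouse 3.

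The thioesterase that rose was Acot11, an enzyme known from brown fat, where it limits fatty acid oxidation. Its levels were 2.51, 2.31, 2.44 and 2.33 in EGFP+, 0.78, 1.03, 0.68 and 1.22 in ALL and 0.21, 0.81, 0.04 and 1.04 in EGFP- arrays (1.87 ± 0.21, adjusted p = 1.2e-05, 3.67-fold). All EGFP+ arrays stood above all others. Acot7, Acot9 and Acot10 did not pass, with differences of 0.20 ± 0.12, 0.45 ± 0.38 and 0.63 ± 0.32.

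The acyl-CoA dehydrogenases open each mitochondrial round. In EGFP+ 1 of the 9 tested was higher, 4 were lower and the other 4 did not pass. The higher one was Acadsb, the short, branched-chain dehydrogenase of isoleucine breakdown, at 3.70, 3.68, 3.78 and 3.64 in EGFP+ and 1.47, 1.67, 1.36 and 1.31 in EGFP- arrays (2.25 ± 0.14, adjusted p = 8.6e-08, 4.75-fold), with no overlap. Acad10 read 1.37, 1.50, 1.53 and 1.56 against 2.21, 2.93, 2.25 and 3.27 (-1.17 ± 0.30, adjusted p = 0.00495). Acad9, also an assembly factor of respiratory complex I, read 1.85, 2.03, 1.95 and 1.72 against 2.61, 3.07, 2.61 and 3.56 (-1.08 ± 0.26, adjusted p = 0.00392). Acad11 read 2.45, 2.48, 2.47 and 2.33 against 3.12, 3.13, 3.39 and 3.11 (-0.76 ± 0.11, adjusted p = 6.7e-05), which became -0.23 (adjusted p = 0.0923) with the mean of its probes.

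The straight-chain dehydrogenases gave differences between -0.68 and 0.28. Medium-chain Acadm was lower (-0.68 ± 0.23, adjusted p = 0.0241), and long-chain Acadl (-0.41 ± 0.18, adjusted p = 0.0686; 0.0122 with the mouse as a block), very-long-chain Acadvl (0.28 ± 0.19, adjusted p = 0.243) and short-chain Acads (-0.33 ± 0.29, adjusted p = 0.362) did not pass. Acad8, of valine breakdown, did not pass either (0.11 ± 0.11).

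Hydratases and hydroxyacyl-CoA dehydrogenases carry the middle steps, and here 4 of 9 were higher, 3 lower and 2 not called. The 2 subunits of the mitochondrial trifunctional protein moved together. Hadhb read 5.63, 5.84, 5.72 and 5.78 in EGFP+ and 4.81, 4.66, 4.81 and 4.90 in EGFP- arrays (0.95 ± 0.10, adjusted p = 6.4e-06), and Hadha read 1.88, 1.80, 1.69 and 1.74 in EGFP+ and 1.0, 0.93, 1.07 and 0.50 in EGFP- (0.90 ± 0.16, adjusted p = 5.1e-04). The short-chain enoyl-CoA hydratase Echs1 read 5.78, 5.90, 6.03 and 6.05 in EGFP+ and 5.01, 5.12, 5.11 and 5.51 in EGFP- (0.76 ± 0.16, adjusted p = 0.00183). In these 3 genes of the mitochondrial matrix or inner membrane, no EGFP+ array overlapped an EGFP- array. Echdc1, an ethylmalonyl-CoA decarboxylase, was higher by 0.39 ± 0.09 (adjusted p = 0.00257).

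On the lower side stood Ehhadh, the peroxisomal multifunctional enzyme that joins hydratase and dehydrogenase, at 2.25, 2.79, 2.74 and 2.70 in EGFP+ and 4.89, 4.92 and 5.72 in the EGFP- arrays of mice 1, 3 and 4 (-2.56 ± 0.32, adjusted p = 7.1e-05, 5.88-fold). Echdc2 read 4.48, 4.47, 4.59 and 4.53 against 5.47, 6.05, 5.74 and 6.54 (-1.43 ± 0.27, adjusted p = 8.3e-04). Ech1, a dienoyl-CoA isomerase, read 3.98, 3.93, 3.82 and 3.76 against 4.27, 4.90, 4.41 and 5.05 (-0.79 ± 0.23, adjusted p = 0.0104). None of the 3 overlapped between fractions. The mitochondrial dehydrogenase Hadh (-0.09 ± 0.24) and Echdc3 (0.03 ± 0.17) did not pass.

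Acyl-CoA oxidases start the peroxisomal round and produce hydrogen peroxide, and Acox2 and Acox3 were lower in EGFP+. Acox2, the oxidase of branched chains and bile acid intermediates, read -2.87, -1.40, -2.61 and -1.96 in EGFP+, 2.41, 2.95, 2.99 and 3.34 in ALL and 2.75, 2.97, 3.04 and 3.28 in EGFP- arrays (-5.22 ± 0.30, adjusted p = 4.1e-08, 37.3-fold). Acox3, the pristanoyl-CoA oxidase, read 1.66, 1.72, 1.73 and 2.24 in EGFP+ and 2.82, 4.07, 2.94 and 5.06 in EGFP- (-1.89 ± 0.56, adjusted p = 0.013), and without mouse 2 it did not pass (-1.73, adjusted p = 0.0856). The EGFP+ arrays lay below the EGFP- arrays in both genes, and within EGFP- the male mice were the higher pair for Acox3 but not for Acox2.

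Thiolases end each round. Acaa1b, a peroxisomal thiolase, read 2.93, 3.04, 2.96 and 2.95 in EGFP+ and 5.29, 5.38, 5.63 and 5.50 in EGFP- arrays (-2.48 ± 0.13, adjusted p = 1.8e-08, 5.58-fold). The mitochondrial Acaa2 was lower (-0.42 ± 0.14, adjusted p = 0.0256), a call that was lost under 7 of the 12 other settings. The probes of Acaa1a, the paralog of Acaa1b, disagreed. Its representative probe at chr9:119198937-119198993 gave -0.38 ± 0.18 (adjusted p = 0.0947; 0.0141 with the mouse as a block), and its other probes gave -1.54 and -2.41. The sequence of the probe with -1.54 is shown because the value of this gene depends on the probe. It crosses an intron, has an open frame and is on the plus strand of mm8, and nothing is capitalised.
Acaa1a, difference -1.54 (chr9:119195223-119196443): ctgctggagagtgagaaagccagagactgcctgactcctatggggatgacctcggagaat

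Peroxins differed by small steps. Of the 16 tested, including Pex5l, 2 rose, 5 fell and 9 did not pass, and none reached 4-fold. Pex11a, which promotes peroxisome division, read 2.36, 2.65, 2.92 and 2.80 in EGFP+ and 3.34, 4.05, 3.51 and 4.24 in EGFP- arrays (-1.10 ± 0.25, adjusted p = 0.00242). The docking factor Pex14 read 0.78, 0.78, 0.57 and 0.75 against 1.27, 1.24, 1.47 and 1.83 (-0.73 ± 0.16, adjusted p = 0.00209), and the membrane factor Pex16 read 1.93, 1.87, 1.62 and 1.90 against 2.25, 2.57, 2.27 and 3.09 (-0.72 ± 0.24, adjusted p = 0.0245). The import receptor Pex5 was lower as well (-0.65 ± 0.10, adjusted p = 1.1e-04). Pex3, a membrane-protein docking factor, was higher at 1.32, 1.37, 1.45 and 1.26 against 1.12, 1.20, 0.70 and 1.0 (0.35 ± 0.12, adjusted p = 0.0245; not past the threshold under 6 of the 12 other settings), and Pex5l was higher at -3.20, -3.20, -2.73 and -3.71 against -3.75, -4.21, -3.97 and -4.61 (0.92 ± 0.24, adjusted p = 0.00553). The differences of Pex6, Pex7, Pex10, Pex13, Pex19 and Pex26 lay between -0.23 and 0.29 and did not pass. Pex11g did not pass (-0.83 ± 0.35, adjusted p = 0.06) but did with the mouse as a block (adjusted p = 0.015).

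For the members that were at least 4-fold lower, each mouse's EGFP+ level was set against its own EGFP- level. Acot4 stood at 1.67%, 4.3%, 1.71% and 2.52% in mice 1 to 4, Acot12 at 2.12%, 4.66%, 1.52% and 2.27%, Acox2 at 2.02%, 4.86%, 1.99% and 2.64% and Acsm1 at 1.83%, 1.34% and 2.77% in mice 1, 3 and 4. The proximal marker sum stood at 1.89%, 4.73%, 2.15% and 3.47%. Mouse 2 was highest for this sum and for Acot4, Acot12 and Acox2. It was also highest for Acaa1b, Acot1, Acot6, Acot3 and Acsm2 below, but not for Acss2. This order therefore does not set the first 3 members apart. Ehhadh stood at 16.1%, 22% and 12.3% in mice 1, 3 and 4, Acaa1b at 19.4%, 19.8%, 15.6% and 17.1% and Acss2 at 28.5%, 19.3%, 25.5% and 12%, so that their EGFP+ level lay above the proximal marker sum in every mouse measured. Acot1 stood at 5.75%, 14.1%, 4.89% and 12.3% and Acot6 at 8.53%, 13.9%, 10.3% and 11.5%. Acot3 stood at 5.27%, 26.8%, 6.81% and 25.8% and Acsm2 at 1.81%, 11.1%, 2.3% and 6.58%. Both males lay above both females for Acsm2, Acot1, Acot6, Acot3, Acot4, Acot12, Acox2 and the proximal marker sum. This did not hold for Acaa1b or Acss2. The part of remaining proximal RNA in any of these values was not tested.

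**Figure D3:**
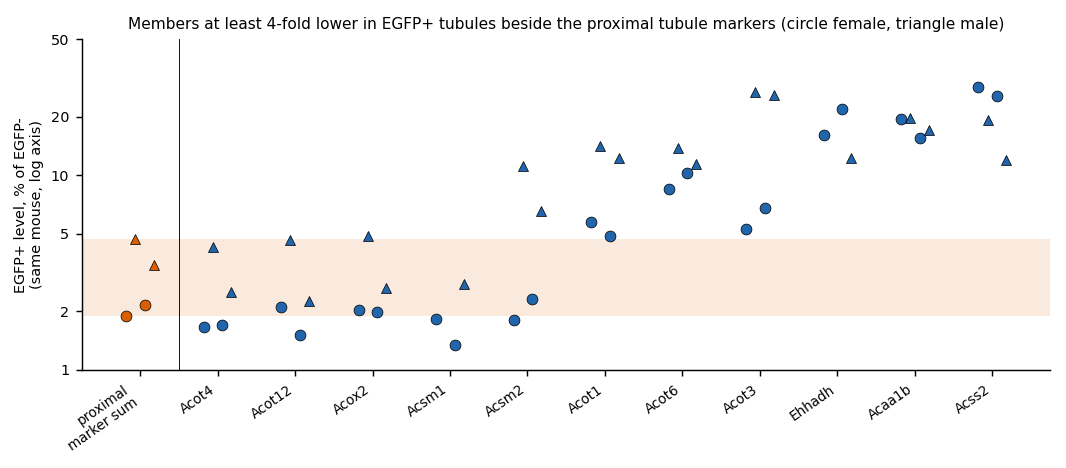
EGFP+ level as a percent of the EGFP- level of the same mouse (log axis) for the 11 called members at least 4-fold lower and above background in EGFP+, beside the summed proximal tubule markers (orange, with their range as a band from 1.89% to 4.73%). Circles are female and triangles male mice. Acot4, Acot12, Acox2 and Acsm1 lie near the band, and Ehhadh, Acaa1b and Acss2 lie above it.

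The second comparison set EGFP+ against the total fraction, from which the DCT had not been removed. It shares the EGFP+ arrays with the first, so the values are given beside it and lend it no separate support. Again 43 of 65 members differed (55.3% of all genes did), 14 higher (30.3% of all genes were) and 29 lower (24.9%), with a median of -0.36 beside 0.09 for all genes. Cpt1b was higher by 3.13 here and by 4.49 against EGFP-, Acadsb by 1.93 and 2.25, and Acsl5 by 1.72 and 2.01. On the lower side Acot4 gave -5.24 against ALL and -5.41 against EGFP-, Acox2 gave -5.14 and -5.22, and Acaa1b gave -2.48 in both.

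The third comparison, ALL against EGFP-, asked what the DCT adds to the total fraction. Cpt1b alone among the 65 members passed in limma (1.36, adjusted p = 8.9e-04), where 1.39% of all genes did, and 3 members had an unadjusted p under 0.05 (4.14% of all genes did). The mean of ALL lay between those of EGFP+ and EGFP- for 50 of 65 members and for 39 of the 43 called in the first comparison. ALL holds both kinds of tubule, so this order follows from the mixture and is no result about the members. The share over all genes was not counted.

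The sex of the mice was compared next, with 2 males and 2 females, which leaves little precision. With the 3 fractions of a mouse averaged, 2 of 65 members passed, both higher in males (1.27% of all genes passed, 0.967% higher), and 29 had an unadjusted p under 0.05 (44.6%, beside 20.7% of all genes). Acot12 was higher in males by 1.82 ± 0.12 (adjusted p = 0.0164), from 0.61 to 2.42 as means over fractions. Acsm3 was higher by 6.36 ± 0.45 (adjusted p = 0.0383), fitted without mouse 2, whose ALL value is missing, so that 1 male stood against 2 females and is assumed to vary as they do. Without the filter on dim probes, or without either male, no member passed in limma.

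The sex fits within a fraction had no mouse term and took the spread from the arrays of all fractions together. Arrays of the same mouse thus counted as replicates although their deviations were correlated, so the p-values of these fits may be too small. Acsm3 had the largest sex difference of the 65 members in each fraction. In EGFP- arrays the males read 5.78 and 6.15 and the females -0.53 and -2.09, a difference of 7.27 ± 0.57 (adjusted p = 6.9e-04). In ALL the male mouse 4 read 6.21 and the females -0.81 and -2.12 (7.67 ± 0.70, adjusted p = 0.00147), and the marked spot of male mouse 2 read 5.39. In EGFP+ the males read 1.99 and 1.43 and the females -2.57 and -2.47 (4.23 ± 0.57, adjusted p = 0.0166). Males and females did not overlap in any fraction.

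The counts within a fraction carry the same limit, since arrays of the same mouse counted as replicates. The fit on the mean of fractions, with 1 value per mouse, passed 2 of 65 members. Within EGFP+ 4 of 65 members passed, all higher in males (1.01% of all genes passed, 0.879% higher). Beside Acsm3 these were Acsm2 (3.1 ± 0.28, adjusted p = 0.00296), Acsm1 (2.67 ± 0.23, adjusted p = 0.00447) and Acot12 (2.38 ± 0.23, adjusted p = 0.00234). In the same EGFP+ arrays the proximal marker sum was 5.31 and 3.65 in the males and 1.84 and 2.34 in the females (4.16 and 2.68 against 1.83 and 2.33 without Slc7a13), and its part in these differences was not tested. Without mouse 1 the count was 1 and without mouse 3 it was 0. Within ALL 19 members passed (29.2%, against 9.49% of all genes), 18 higher in males (6.62% of all genes were) and 1 lower (2.87%). Within EGFP- 15 passed (23.1%, against 7.46%), 14 higher in males (5.0%) and 1 lower (2.46%). These counts rested on both females, since without mouse 1 or without mouse 3 only 1 member passed in ALL and 1 in EGFP-, and without the male mouse 4 it was 2 and 4. The proximal marker sum in EGFP- was 112.3 and 105.1 in males and 97.8 and 108.7 in females, which overlap, and without Slc7a13 it was 92.4 and 81.0 in males and 97.8 and 108.7 in females.

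Enzymes of several roles were among those higher in males. In EGFP- arrays the peroxisomal oxidase Acox3 was higher by 1.68 ± 0.37 (adjusted p = 0.0317). Acot9, a mitochondrial thioesterase, read 1.63, 2.80, 1.44 and 2.86 in the EGFP- arrays of mice 1 to 4, higher in males by 1.30 ± 0.16 (adjusted p = 0.00308), and Acads was higher by 0.85 ± 0.14 (adjusted p = 0.0114). Acot10 (1.03 ± 0.18), Acad10 (0.87 ± 0.18), Acot11 (0.80 ± 0.14), Cpt1a (0.71 ± 0.12), Pex11g (1.03 ± 0.24), Pex13 (0.72 ± 0.16) and Ech1 (0.63 ± 0.15) passed in EGFP- too, as did Acsm1 (1.57 ± 0.29) with mouse 4 as its only male. With outlier-marked spots kept, Acsm1, Ech1 and Pex11g did not pass, and the Acsm1 spot of mouse 2 read 6.21. Acad9, Acadl, Acsm2, Acss2, Echdc2 and Ehhadh passed in ALL and not in EGFP-, with mouse 4 as the only male for Acsm2, Echdc2 and Ehhadh. With the marked spots kept, only Acadl of these 6 passed in ALL. The exception to the male direction was Acot3, at 0.90, -0.47, 0.67 and -1.34 in EGFP- arrays, lower in males by 1.69 ± 0.41 on the log2 scale (adjusted p = 0.0447).

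Slide and sex were not crossed, but each fraction had 1 slide with a male and a female array. On these, male minus female for Acot12 was 2.49 in EGFP+, 1.55 in ALL and 1.68 in EGFP-, and for Acsm3 it was 4.56 in EGFP+ and 8.24 in EGFP-. Acot9 gave 1.43 and Acot3 -2.01 in EGFP-. Each is 1 pair of mice with no test.

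A dependence of the fraction difference on sex was tested with 1 EGFP+ minus EGFP- value from each of the 4 mice. No member passed in limma after adjustment, as no gene did of all tested (0.00%), and 21 members had an unadjusted p under 0.05 (32.3%, beside 12.1% of all genes). Acot9 stood at 0.96 and 1.35 in the females and -0.03 and -0.48 in the males (EGFP+ minus EGFP-, adjusted p of the dependence = 0.281), and Acads at 0.11 and 0.04 in the females and -0.57 and -0.89 in the males (adjusted p = 0.359). A sex difference seen in ALL or EGFP- and not in EGFP+ is therefore not shown to differ between fractions.

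**Figure D4:**
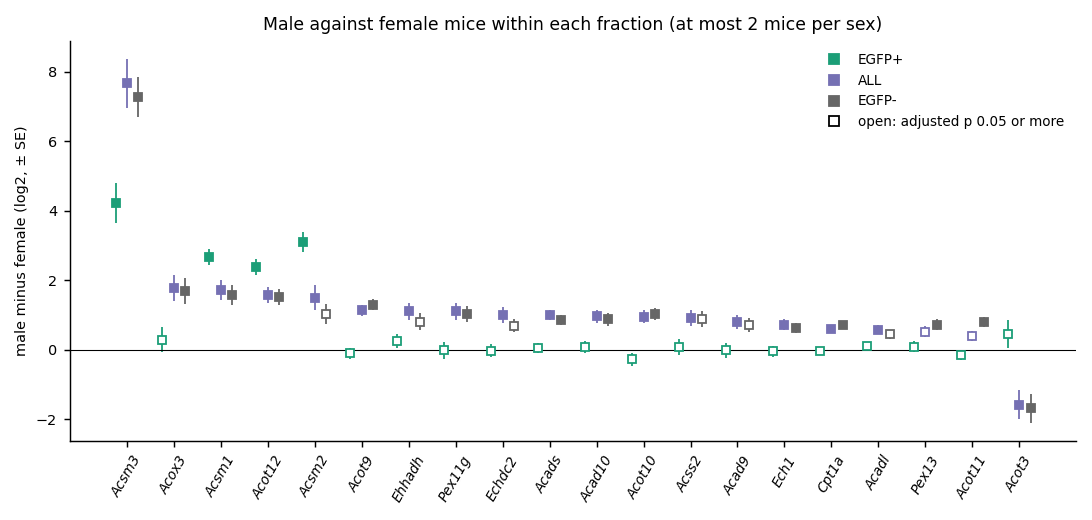
Male minus female difference (log2, bars are SE of the limma fit, 2 mice per sex except where mouse 2 lacks a value, which leaves 1 male for Acsm1, Acsm2, Acsm3, Echdc2 and Ehhadh in ALL and for Acsm1 and Ehhadh in EGFP-) in EGFP+, ALL and EGFP- tubules for 20 members that passed in at least 1 sex comparison, with filled squares where the adjusted p was under 0.05. In EGFP+ only Acsm1, Acsm2, Acsm3 and Acot12 are filled, and Acot3 lies below 0 in ALL and EGFP-.

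Genes around the members were read from lists of the pathway. Beside the counts of every list below, 32.3% of all genes tested were higher in EGFP+ than in EGFP- and 25.9% lower. The lists were not tested against these shares. Among 14 tested transcriptional regulators 5 were higher in EGFP+ and 5 lower. The higher ones were led by Perm1, a muscle regulator of oxidative genes (5.85 ± 0.16, adjusted p = 8.5e-10), the oestrogen-related receptor Esrrb (4.44 ± 0.18, adjusted p = 3.4e-09) and the coactivator Ppargc1a (1.61 ± 0.13, adjusted p = 6.0e-07). The lower ones were led by Hnf4a, which is also one of the proximal markers (-5.35 ± 0.31, adjusted p = 4.0e-08), the liver X receptor Nr1h3 (-2.73 ± 0.17) and Ppara, the fatty acid receptor that drives peroxisomal genes in liver (-2.30 ± 0.23, adjusted p = 4.4e-06).

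Of 14 tested uptake and binding proteins 4 were higher and 7 lower (median -0.98). Heart-type Fabp3 (2.59 ± 0.17), the transporter Slc27a1 (1.72 ± 0.13) and Acbd3 (0.85 ± 0.10) were higher, and liver-type Fabp1 (-5.25 ± 1.07, above background on 1 EGFP+ array), Slc27a2 (-4.12 ± 0.51) and Acbd4 (-2.45 ± 0.26) were lower. Of 11 genes of carnitine supply and malonyl-CoA control 2 were higher and 7 lower. Acacb, which makes the malonyl-CoA that inhibits carnitine palmitoyltransferase 1, was higher (3.64 ± 0.21, adjusted p = 4.3e-08), as was Crat (0.53 ± 0.20). Bbox1, the last enzyme of carnitine synthesis, was at least 4.86-fold lower, with no EGFP+ array above background, and Aldh9a1 (-2.35 ± 0.24) and the carnitine transporter Slc22a5 (-2.24 ± 0.18) were lower.

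Of 15 other mitochondrial enzymes of the pathway 2 were higher (Mcee 0.91 ± 0.14, Pcca 0.60 ± 0.22), 4 lower (led by Gcdh -1.70 ± 0.22, Decr1 -1.03 ± 0.11 and Eci2 -0.79 ± 0.31) and the median was -0.03. Of 40 other peroxisomal genes tested out of 45 listed, 23 were lower and 2 higher, with a median of -1.09. Baat, which conjugates bile acids, was at least 17.7-fold lower with no EGFP+ array above background, and the oxidases Dao (-5.32 ± 0.41) and Hao2 (-4.72 ± 0.62) followed. The CoA hydrolase Nudt7 was higher (0.60 ± 0.18). Pex2 itself, on a probe with another name in the files, did not pass (0.30, adjusted p = 0.229).

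Among 6 ketone body genes 3 were higher and 2 lower. Hmgcll1, an extramitochondrial lyase, was at least 101.9-fold higher, with no EGFP- array above background, and Bdh1 (1.64 ± 0.64, adjusted p = 0.0471) and Oxct1 (0.70 ± 0.17, adjusted p = 0.00398), which use ketone bodies, were higher.

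**Figure D5:**
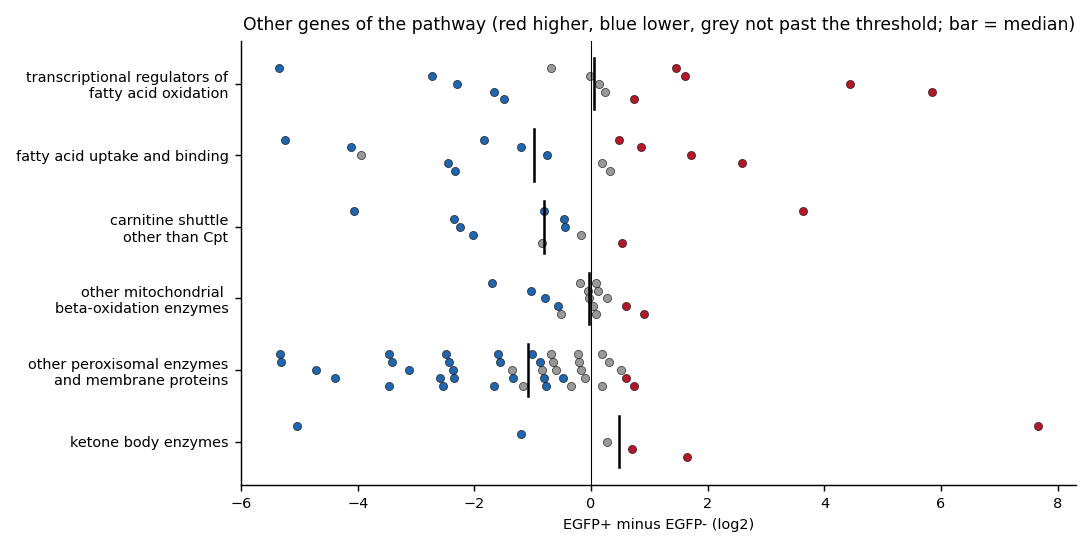
EGFP+ minus EGFP- difference (log2) of the tested genes in 6 lists of the pathway, 1 point per gene, with red for higher, blue for lower, grey for not past the threshold and a bar at the list's median. The other peroxisomal genes lie mostly left of 0, with a median of -1.09, and the ketone body gene at the far right is Hmgcll1.

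The 250 bases before the annotated start were searched in 57 members with a RefSeq promoter (GRCm38.p6) for elements of nuclear receptors that control this pathway. A direct repeat of AGGTCA with 1 base between the copies, bound by PPAR with RXR, was in 0 members and in 0.0407% of 27025 genes, and the same repeat of the relaxed AGGNCA was in 0 members and 0.4% of genes. CAAAGTCCA, an HNF4 element, was in 0 members and 0.451% of genes, and TCAAGGTCA, the oestrogen-related receptor element, was in Acsl6 only and in 0.422% of genes. The half-site AGGTCA, which overlaps the direct repeat and TCAAGGTCA by construction, was in 12 members (21.1%, against 15.8% of genes), among them 2 of 12 called higher, 6 of 24 called lower and 3 of 19 not called. Both strands were searched, and a match describes letters only. The windows of a pair of higher and a pair of lower members that hold a half-site are shown for comparison, 5′ to 3′ along the gene, with the half-site in capitals (TGACCT is the same site on the other strand).
Cpt1a (chr19:3323051-3323300, plus strand): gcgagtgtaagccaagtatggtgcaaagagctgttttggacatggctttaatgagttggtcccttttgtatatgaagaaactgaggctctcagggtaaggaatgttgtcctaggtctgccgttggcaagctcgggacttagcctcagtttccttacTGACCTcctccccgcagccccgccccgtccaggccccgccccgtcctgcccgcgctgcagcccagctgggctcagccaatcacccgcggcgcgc
Echs1 (chr7:140116422-140116671, minus strand): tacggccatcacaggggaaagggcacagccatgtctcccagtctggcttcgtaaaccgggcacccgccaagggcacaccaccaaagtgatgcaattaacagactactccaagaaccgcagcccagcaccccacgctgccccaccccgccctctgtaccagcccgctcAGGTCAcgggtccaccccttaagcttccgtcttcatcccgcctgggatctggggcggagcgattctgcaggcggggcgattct
Acot4 (chr12:84038129-84038378, plus strand): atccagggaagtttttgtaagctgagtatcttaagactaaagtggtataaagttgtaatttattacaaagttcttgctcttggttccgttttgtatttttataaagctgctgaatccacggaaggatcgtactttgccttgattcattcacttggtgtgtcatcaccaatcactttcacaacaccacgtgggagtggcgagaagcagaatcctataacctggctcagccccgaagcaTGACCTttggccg
Acot12 (chr13:91741271-91741520, plus strand): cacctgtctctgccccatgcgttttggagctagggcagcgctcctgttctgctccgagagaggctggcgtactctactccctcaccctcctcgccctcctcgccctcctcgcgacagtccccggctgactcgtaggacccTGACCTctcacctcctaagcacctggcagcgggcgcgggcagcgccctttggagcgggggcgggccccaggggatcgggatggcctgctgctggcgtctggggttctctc
The half-site began 94 bases before the start in Cpt1a and 83 in Echs1, both higher in EGFP+, and 13 bases before it in Acot4 and 110 in Acot12, both lower. Each of the 4 windows held 1 half-site.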

How the data were processed

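Gene expression was measured in 12 samples, 3 sorted fractions of 4 mice, on 1-colour Agilent arrays with mm8 coordinates, read with Feature Extraction 9.5.3.1, per the file headers. The deposited processed signal is an intensity, already background-corrected by that software, and the mean and background signals are deposited intensities too. From these, log2 values were computed here, spots of a probe were averaged without control and outlier-marked spots, and each array's 75th percentile was subtracted. The series' value table was not used, and a few items are not reported here. Probes well above background on at least 4 arrays were tested, and a gene was represented by its brightest tested probe. Names of the 41174 probes came from the accession (24375), the current symbol (6301), an older symbol (2426) or the deposited name alone (8072). Differences were tested with limma 3.58.1 in R 4.3.3, with 1 coefficient per fraction, Benjamini-Hochberg adjustment over 17071 genes and a threshold of 0.05. Bounds ("at least N-fold") set the bright fraction against the higher of an array's lowest signal above background and the probe's own. The members and lists were chosen with earlier results of these data known. Named in full were up to 3 members each way per role and those with a sex difference. The labels give the mouse of each sample, so the mouse pairs the fractions. Same-mouse arrays of different fractions had deviations correlated at 0.23 to 0.82 (median 0.34, 12 pairs, 16626 genes). Arrays of different mice and fractions were correlated at -0.68 to 0.59 (median -0.19, 36 pairs), which overlaps that range. The main fit has no mouse term, and the fit with the mouse as a block is an alternative. The sex fits within a fraction have no mouse term either, and a mouse block was not among their alternatives. Precision is limited by having 4 arrays per fraction. The fits were also run on simulated arrays with independent noise and no mouse effect, which cannot check the lack of a mouse term. Alternatives changed the background correction, scaling, filter, probe choice, blocks and mice included.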

Additional observations from a re-analysis of the deposited data

Results flagged for a closer look

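The members described in full gave 126 groups of arrays, each with 4 values, or 3 where mouse 2 lacks one. Of these groups, 8 held an array that stood apart from the others (gap to the nearest divided by the range above Dixon's critical value for its group). Chance alone gives about 1 such group in 20. In EGFP+ these were Acot3 in mouse 2 (-2.37, the others at -3.21 or lower), Acox3 in mouse 4 (2.24, the others at 1.73 or lower), Acsl3 in mouse 4 (1.64, the others at 1.91 or higher) and Pex14 in mouse 3 (0.57, the others at 0.75 or higher). In ALL they were Acsl3 in mouse 2 (1.14, the others at 0.74 or lower), Hadha in mouse 4 (0.61, the others at 1.14 or higher) and Pex14 in mouse 4 (1.73, the others at 1.24 or lower). In EGFP- it was Acad11 in mouse 3 (3.39, the others at 3.13 or lower).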

How the results depend on the processing

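The count of members called for EGFP+ against EGFP- lay between 35 and 47 under 12 other settings, 1 of them (outlier-marked spots kept) chosen after seeing the data, beside 43. With the mouse as a block (replicate block) it was 47 in each of both EGFP+ comparisons. No call was lost there and Acaa1a, Acadl, Acsm3 and Pex11g were gained against EGFP-. Median centring moved the median of all genes from 0.11 to 0.26 for EGFP+ against EGFP-. For EGFP+ against ALL it moved from 0.09 to 0.29, and the members called lower there fell from 29 to 19. Cpt1c turned to 0.20 with normexp correction. The sex results were the least stable. On the mean of fractions the 2 calls became 13 with normexp, 7 with median centring, 0 without the filter and 0 to 1 with a mouse left out (1 without mouse 1 or 3, 0 without mouse 2 or 4). Within EGFP+ the 4 calls became 0 with normexp and 0 to 3 with a mouse left out (1 without mouse 1, 0 without mouse 3). Within ALL the 19 became 3 with normexp, 12 with quantile normalization, 7 without the filter, 12 with outlier-marked spots kept and 1 to 16 with a mouse left out (1 without mouse 1 or 3, 2 without mouse 4). Within EGFP- the 15 became 4 with normexp, 7 without the filter and 1 to 16 with a mouse left out (1 without mouse 1 or 3, 4 without mouse 4). With a mouse left out, 1 array of that sex remains and is taken to vary like the others. The cause of these shifts was not tested, apart from the smaller number of samples. Cpt1c and Acot5 were limited by background.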
